A study of Mus musculus with 6 samples.

Results

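The clustered protocadherins are a family of cadherin-like adhesion proteins encoded in 3 neighbouring clusters, alpha, beta and gamma, on mouse chromosome 18. Members were the protein-coding genes of GENCODE release M21 whose symbol begins with Pcdha, Pcdhb, Pcdhga, Pcdhgb or Pcdhgc followed by a number, at any level. There were 55 of them among the 24520 genes of the deposited table: 12 alpha genes, 22 beta genes and 21 gamma genes. RNA came from endothelial cells, the lining cells of vessels, which had been isolated from wild-type (wt) mouse lung by fluorescence-activated sorting. There were 3 libraries from mice aged 18 months and 3 from mice aged 8 months, labelled aged and mAdu, with no other treatment named. Strain, sex and sorting markers are not stated in the labels. Separate mice per library are not stated either, so the p-values reflect only the variation among these libraries, which could be technical. The comparison of the ages addresses what differs in the transcriptome of these cells with age, in a series on DNA methylation that depends on DNMT3A.

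Each protein of the family binds copies of itself on a facing cell, and different members combine into recognition units at the cell surface. In neurons, single promoters of the clusters are chosen largely at random, so that neighbouring cells carry different sets, and the contacts built from matching sets let a neuron tell its own branches from those of others. Promoter choice is tied to DNA methylation: silent promoters are methylated, DNMT3B sets marks there in the embryo, SMCHD1 keeps clusters repressed, and CTCF with cohesin joins an unmethylated promoter to distant enhancers. The genes at the downstream end of the alpha and gamma clusters, called C-type, are under less of this random choice. Methylation was not analysed here, and RNA summed over many cells does not show which promoters a single cell used.

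In these endothelial cells the members of the 3 clusters stood at very different levels. The gamma cluster had the highest summed level, the beta cluster came next, and the alpha genes of the rule were close to 0. This order held in all 6 libraries. TPM, a unit that expresses each gene as its part of all transcripts after division by length, is used throughout. Comparisons between genes also depend on how reads from shared sequence were divided, which is not known. The summed gamma level was 2.41 to 2.84 times the beta level within a library. The beta level was 28.8 to 65.3 times that of the 12 alpha members. This alpha sum leaves out the C-type genes Pcdhac1 and Pcdhac2, which summed to 25.4 to 62.4 TPM in a library. The gamma sum includes its own C-type genes. Of the summed TPM of the 55 genes, the gamma cluster held 70.0 to 73.3%, the beta cluster 25.8 to 29.0% and the 12 alpha members 0.412 to 1.01%. The median gene of the cluster lay between 6.09 and 10.1 TPM per library in gamma, between 2.27 and 3.67 TPM in beta and between 0.0199 and 0.101 TPM in alpha.

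**Figure D1:**
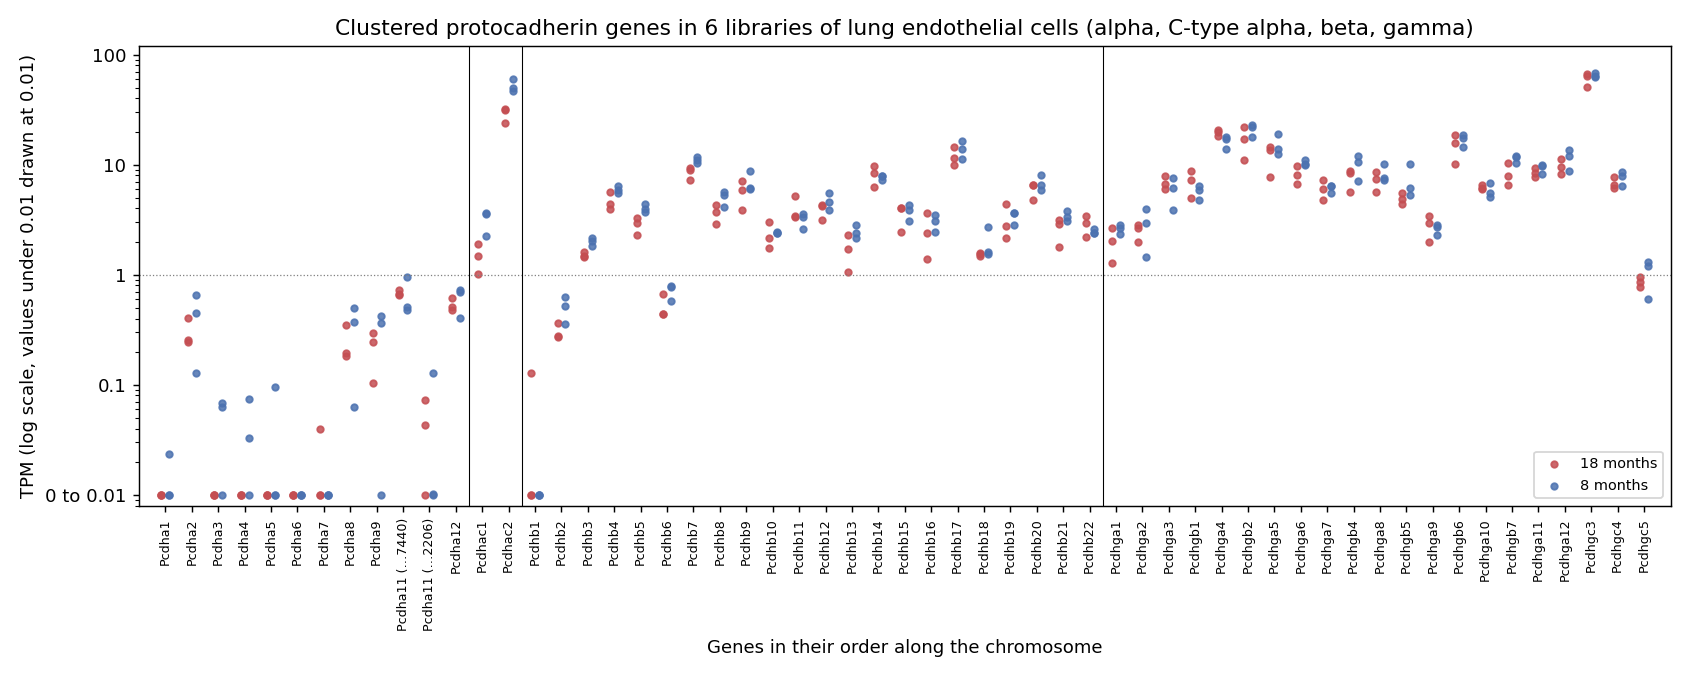
TPM (log scale) of the 55 members and of the C-type alpha genes Pcdhac1 and Pcdhac2, in their order along chromosome 18, with 1 point per library, red for 18 months and blue for 8 months, and values under 0.01 TPM drawn at 0.01. The dotted line marks 1 TPM, which no alpha gene of the rule reached in any library, while 19 beta and 20 gamma genes had at least 1 TPM in all 6.

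Each alpha and gamma gene consists of 1 long variable exon of its own, with its own promoter, that is spliced to 3 small or terminal exons common to the whole cluster. In the annotation (GRCm38, plus strand) the alpha cluster spans 36930184 to 37187661 of chromosome 18, the beta cluster 37264938 to 37524479 and the gamma cluster 37661793 to 37841873. The constant exons of the alpha cluster are 59, 89 and 2712 bases long and occur in all 14 alpha genes, the pair of C-type genes included. Those of the gamma cluster are 59, 89 and 1971 bases long, and the exact ends of the last were annotated in 17 of the 21 genes. Beta genes have no constant exons, and 18 of the 22 are annotated as a single exon. The authors' tool, kallisto, assigns reads by short sequences, and reads from the constant exons fit every gene of a cluster. Of the 31-base sequences in the transcripts of an alpha member, 61.7 to 92.2% also occurred in transcripts of another gene, on either strand (median 66.3%). In gamma members the range was 37.4 to 99.4% (median 47.9%), and in beta members 0 to 66.9% (median 11.8%). The gamma gene with the highest share was Pcdhga10, of which 45.4% occurred in other gamma genes, and the beta gene was Pcdhb12, of which 22.5% occurred in other beta genes. How the tool divided reads between such genes cannot be seen in the values, so levels of single alpha and gamma genes are less certain than those of most beta genes. The strand of the reads is not known either. The spans of all alpha and gamma members, introns included, overlap genes annotated on the opposite strand. So does the span of the beta gene Pcdhb12. Whether exons overlap was not checked.

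**Figure D2:**
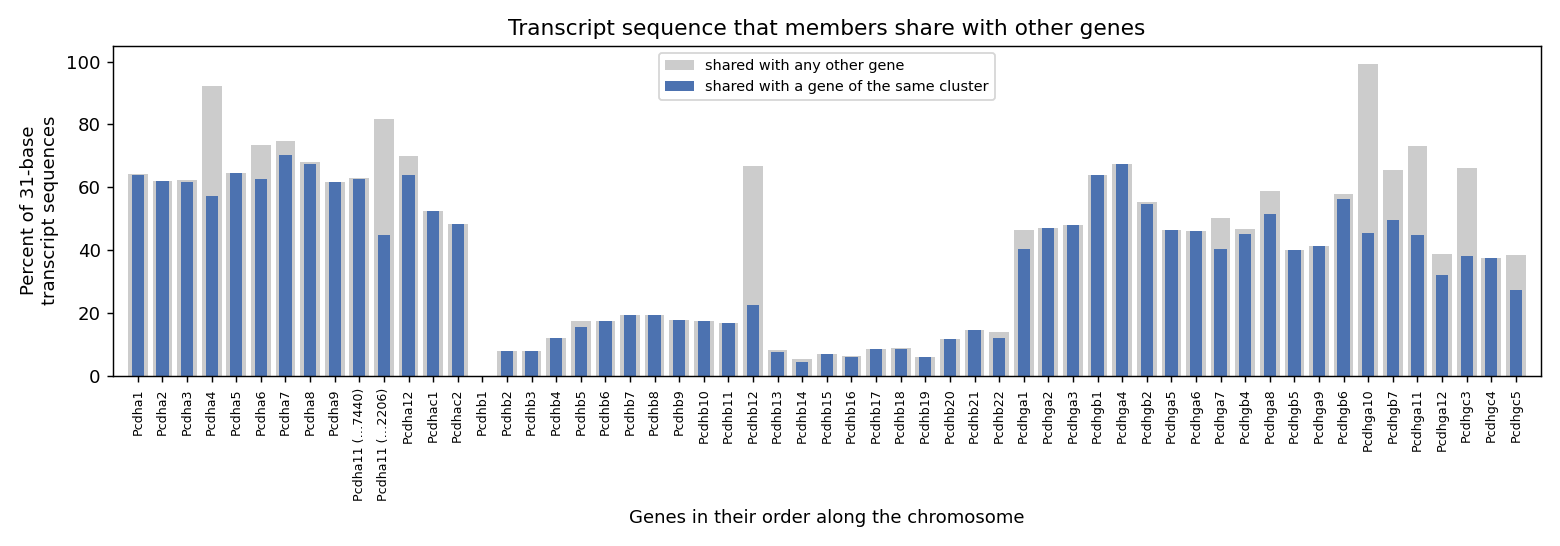
Percent of the 31-base transcript sequences of each gene, in chromosome order, that also occur in transcripts of any other gene (grey bars) or of a gene in the same cluster (blue bars). Alpha genes share the most, with a median of 66.3%, and beta genes the least, with a median of 11.8%.

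No alpha gene of the rule reached 1 TPM in any library. Pcdha6 was listed at 0 in all 6 libraries, between 6 and 8 of the 12 genes were above 0 in a library, and 4 genes were above 0 in every library. Since the depth of the libraries is unknown, a value of 0 says only that the gene is listed at 0. The highest mean belonged to the gene with the identifier ENSMUSG00000007440, at 0.665, 0.725 and 0.6499 TPM in the 18-month libraries against 0.504, 0.476 and 0.946 TPM in the 8-month ones. GENCODE M21 gives the symbol Pcdha11 both to this gene and to ENSMUSG00000102206, and RefSeq's annotation of the same assembly places Pcdha10 at the first and Pcdha11 at the second. The second one stood at 0, 0.0721 and 0.0432 TPM in the 18-month libraries against 0, 0.0102 and 0.128 TPM in the 8-month ones. Next came Pcdha12, the last alpha gene before the C-type genes, at 0.508, 0.613 and 0.476 TPM in the 18-month libraries against 0.6897, 0.407 and 0.726 TPM in the 8-month ones. Pcdha2, near the upstream end, stood at 0.258, 0.405 and 0.243 TPM in the 18-month libraries against 0.445, 0.129 and 0.649 TPM in the 8-month ones. The libraries of both ages overlapped in each of these 4 genes. Pcdha8 and Pcdha9 reached at most 0.4999 and 0.4198 TPM, and the remaining alpha genes, Pcdha1 and Pcdha3 to Pcdha7, at most 0.0963 TPM.

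Beside these near-silent genes, the C-type genes Pcdhac1 and Pcdhac2 at the downstream end of the same cluster, which fall outside the symbol rule, held 92.4 to 97.1% of the summed TPM of all 14 alpha genes. Pcdhac2, known from the spacing of serotonergic axons in the brain, stood at 31.3, 23.95 and 32.4 TPM in the 18-month libraries against 50.1, 46.5 and 60.1 TPM in the 8-month ones. All 18-month libraries lay below all 8-month libraries, with means of 29.2 ± 4.601 TPM for 18 months and 52.3 ± 7.05 TPM for 8 months (SD, n = 3 each), a level 1.79 times higher at 8 months. Pcdhac2 did not pass the test over all genes, with a log2 difference of -0.82 (limma, 95% interval -1.17 to -0.47, adjusted p = 0.126). Pcdhac1 stood at 1.91, 1.48 and 1.01 TPM in the 18-month libraries against 3.56, 3.65 and 2.24 TPM in the 8-month ones, again with no overlap, and had a log2 difference of -0.75 (limma, 95% interval -1.28 to -0.22, adjusted p = 0.221). The adjusted p of Pcdhac2 lay between 0.0543 and 0.276 over the alternative settings. In all of these the value at 18 months was the lower one, with log2 differences between -0.90 and -0.69 for Pcdhac2 and between -1.06 and -0.61 for Pcdhac1. In bulk RNA, fewer cells of a type and less RNA per cell cannot be told apart. The summed fibroblast and the summed smooth muscle and pericyte markers were lower at 18 months without overlap, while the epithelial, immune, mesothelial, neuronal and Schwann cell sums overlapped. Nearly all of the neuronal sum came from Stmn2. Of the tested markers in the lists with overlapping sums, Rbfox3 (neuronal) and Ncam1 (Schwann cell) were lower without overlap. S100a8 (immune) was higher without overlap. The 7 fibroblast markers summed to 9.26 to 12.9 TPM at 18 months against 18.9 to 34.8 TPM at 8 months, and the 7 smooth muscle and pericyte markers to 14.0 to 17.5 against 21.7 to 28.9 TPM. Single genes did not overlap in 3 of the 6 tested fibroblast markers and in 4 of the 5 tested smooth muscle and pericyte markers, all lower. Among all tested genes, 14.2% were lower at 18 months without overlap. The 5 lymphatic endothelial markers summed to 599.6 to 756.8 against 894.0 to 1149 TPM, nearly all of it from Lyve1, the 1 tested lymphatic marker without overlap, while Prox1 had means of 0.0305 and 0.0849 TPM. Among the 7 markers of endothelium itself, which summed to 5277 to 5804 against 6213 to 6391 TPM, Cdh5, Kdr and Cldn5 were lower without overlap, and Pecam1, Tek, Erg and Emcn overlapped. Their part in the C-type difference was not tested.

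Transcripts of nearly the whole beta cluster were present. In every library 19 of the 22 genes had at least 1 TPM, and these were the same 19 genes, which were also the beta genes whose mean reached 1 TPM. The exceptions were the first, second and sixth of the cluster. Pcdhb1 was listed at 0 in 5 libraries and at 0.128 TPM in 18-month library 3. Pcdhb2 stood at 0.278, 0.274 and 0.364 TPM in the 18-month libraries against 0.517, 0.627 and 0.3601 TPM in the 8-month ones. Pcdhb6 stood at 0.673, 0.443 and 0.442 TPM in the 18-month libraries against 0.576, 0.793 and 0.773 TPM in the 8-month ones.

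Among the 19 others the mean levels ran from 1.74 TPM in Pcdhb18 to 12.9 TPM in Pcdhb17. Pcdhb17 stood at 14.3, 10.04 and 11.6 TPM in the 18-month libraries against 11.3, 13.8 and 16.3 TPM in the 8-month ones. It was the highest beta gene in 5 libraries and the second highest in the first 8-month library, where Pcdhb7 led. Pcdhb7 stood at 9.34, 7.28 and 8.86 TPM in the 18-month libraries against 11.6, 10.3 and 11.1 TPM in the 8-month ones, with all 18-month libraries below all 8-month libraries. Pcdhb14 stood at 9.69, 6.32 and 8.49 TPM in the 18-month libraries against 7.85, 7.82 and 7.28 TPM in the 8-month ones. Pcdhb20 stood at 6.52, 4.73 and 6.56 TPM in the 18-month libraries against 5.91, 8.14 and 6.48 TPM in the 8-month ones. In both, the ages overlapped. Pcdhb9 stood at 7.09, 3.87 and 5.85 TPM in the 18-month libraries against 5.96, 8.81 and 6.199 TPM in the 8-month ones. Pcdhb4 stood at 5.64, 3.93 and 4.36 TPM in the 18-month libraries against 5.92, 6.36 and 5.501 TPM in the 8-month ones. The second 18-month library was the lowest in both. These 6 were the beta genes whose mean reached 5 TPM.

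Between 3 and 5 TPM in the mean stood 7 beta genes. Pcdhb8 stood at 3.698, 2.903 and 4.31 TPM in the 18-month libraries against 4.12, 5.63 and 5.29 TPM in the 8-month ones. Pcdhb12 stood at 4.29, 3.17 and 4.23 TPM in the 18-month libraries against 5.51, 3.89 and 4.58 TPM in the 8-month ones. Pcdhb15 stood at 4.05, 2.44 and 4.03 TPM in the 18-month libraries against 3.08, 3.84 and 4.34 TPM in the 8-month ones. In these 3 genes the second 18-month library had the lowest value and the ages overlapped. Pcdhb11 stood at 5.16, 3.43 and 3.33 TPM in the 18-month libraries against 2.59, 3.58 and 3.37 TPM in the 8-month ones. Pcdhb5 stood at 3.27, 2.32 and 2.97 TPM in the 18-month libraries against 3.95, 4.37 and 3.72 TPM in the 8-month ones. Pcdhb11 was one of 3 beta genes whose log2 difference was above 0, whereas in Pcdhb5 the ages did not overlap and 18 months was lower. Pcdhb19 stood at 4.38, 2.14 and 2.78 TPM in the 18-month libraries against 2.82, 3.64 and 3.604 TPM in the 8-month ones. Pcdhb21 stood at 3.13, 1.799 and 2.902 TPM in the 18-month libraries against 3.06, 3.38 and 3.78 TPM in the 8-month ones. The first 18-month library was the highest of all for Pcdhb19, and the second the lowest for both.

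The 6 remaining beta genes had means between 1.74 and 2.75 TPM. Pcdhb16 stood at 3.64, 1.396 and 2.39 TPM in the 18-month libraries against 2.45, 3.52 and 3.09 TPM in the 8-month ones. Pcdhb22, the last gene of the cluster, stood at 3.39, 2.21 and 2.92 TPM in the 18-month libraries against 2.596, 2.401 and 2.39 TPM in the 8-month ones. Pcdhb10 stood at 3.005, 2.13 and 1.75 TPM in the 18-month libraries against 2.38, 2.39 and 2.46 TPM in the 8-month ones. The ages overlapped in these 3, and the 18-month libraries spread more widely than the 8-month libraries. Pcdhb13 stood at 2.29, 1.07 and 1.704 TPM in the 18-month libraries against 2.86, 2.39 and 2.14 TPM in the 8-month ones. Pcdhb3 stood at 1.46, 1.48 and 1.61 TPM in the 18-month libraries against 1.84, 2.16 and 2.03 TPM in the 8-month ones. Pcdhb18 stood at 1.48, 1.54 and 1.57 TPM in the 18-month libraries against 1.62, 1.53 and 2.69 TPM in the 8-month ones. In Pcdhb3 the ages did not overlap, with 18 months lower, and in Pcdhb18 8-month library 3 stood above the other 5.

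In the gamma cluster all 21 genes were above 0.5 TPM in all 6 libraries. The C-type gene Pcdhgc3, whose protein is known to bind Axin1 of the Wnt pathway, was the highest member in every library. It stood at 63.9, 50.6 and 66.7 TPM in the 18-month libraries against 64.4, 67.5 and 62.7 TPM in the 8-month ones. That was 25.2 to 29.0% of the summed gamma level in a library, and its mean exceeded that of 90.8% of all genes in the table. The ages overlapped, with means of 60.4 ± 8.58 TPM for 18 months and 64.9 ± 2.43 TPM for 8 months (SD, n = 3 each) and a log2 difference of -0.11 (limma, 95% interval -0.39 to 0.17, adjusted p = 0.7601). The other C-type genes stood far lower. Pcdhgc4, needed for the survival of certain neurons, stood at 7.704, 6.15 and 6.52 TPM in the 18-month libraries against 6.41, 8.604 and 7.84 TPM in the 8-month ones. Pcdhgc5 stood at 0.962, 0.768 and 0.863 TPM in the 18-month libraries against 0.602, 1.301 and 1.2 TPM in the 8-month ones and was the one gamma gene with a mean under 1 TPM.

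The 6 B-type gamma genes had a median mean level of 9.28 TPM and the 12 A-type genes one of 7.06 TPM. The highest B-type gene was Pcdhgb2, which held a rank between 2 and 3 in the cluster in every library, at 22.2, 11.1 and 17.2 TPM in the 18-month libraries against 17.97, 22.2 and 23.1 TPM in the 8-month ones. Pcdhgb6 stood at 18.6, 10.05 and 15.9 TPM in the 18-month libraries against 14.5, 18.6 and 17.5 TPM in the 8-month ones. Both had their lowest value in the second 18-month library, and the ages overlapped. Pcdhgb7 stood at 10.3, 6.54 and 7.86 TPM in the 18-month libraries against 10.4, 11.8 and 12.1 TPM in the 8-month ones. In Pcdhgb7 the first 8-month library, its lowest at that age, lay just above the highest 18-month library. Pcdhgb4 stood at 8.74, 5.68 and 8.35 TPM in the 18-month libraries against 7.104, 11.9 and 10.5 TPM in the 8-month ones. Pcdhgb1, the most upstream B-type gene, stood at 8.75, 5.01 and 7.22 TPM in the 18-month libraries against 4.82, 5.91 and 6.46 TPM in the 8-month ones. Pcdhgb5 stood at 5.55, 4.91 and 4.43 TPM in the 18-month libraries against 5.35, 10.1 and 6.203 TPM in the 8-month ones. The ages overlapped in these 3, and the second 8-month library stood far above the other 5 in Pcdhgb5.

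Of the A-type genes Pcdhga4 was the highest, at 18.3, 20.5 and 19.9 TPM in the 18-month libraries against 17.3, 17.9 and 14.03 TPM in the 8-month ones. It was the 1 tested member in which all 18-month libraries lay above all 8-month libraries, with a log2 difference of 0.25 (limma, 95% interval -0.06 to 0.55, adjusted p = 0.467), and it did not pass. Pcdhga5 stood at 14.6, 7.66 and 13.6 TPM in the 18-month libraries against 13.8, 19.1 and 12.6 TPM in the 8-month ones. Pcdhga12 stood at 11.3, 9.503 and 8.23 TPM in the 18-month libraries against 12.1, 13.5 and 8.74 TPM in the 8-month ones. Both overlapped between the ages. Pcdhga6 stood at 8.07, 6.74 and 9.65 TPM in the 18-month libraries against 10.1, 11.01 and 9.89 TPM in the 8-month ones. In Pcdhga6 the ages did not overlap, with 18 months lower. Pcdhga11 stood at 8.44, 9.34 and 7.66 TPM in the 18-month libraries against 9.84, 9.71 and 8.15 TPM in the 8-month ones. Pcdhga8 stood at 8.58, 5.64 and 7.36 TPM in the 18-month libraries against 7.304, 10.1 and 7.58 TPM in the 8-month ones. Pcdhga3 stood at 6.69, 6.04 and 7.85 TPM in the 18-month libraries against 3.87, 7.53 and 6.11 TPM in the 8-month ones. The ages overlapped in these 3. Pcdhga7 stood at 7.29, 4.74 and 6.01 TPM in the 18-month libraries against 6.45, 6.404 and 5.53 TPM in the 8-month ones. Pcdhga10 stood at 6.06, 6.09 and 6.59 TPM in the 18-month libraries against 5.12, 6.86 and 5.48 TPM in the 8-month ones, and almost all of its transcript sequence also occurs in another gene. The lowest A-type genes were Pcdhga9 and the first pair of the cluster, Pcdhga1 and Pcdhga2. Pcdhga9 stood at 3.399, 1.99 and 2.93 TPM in the 18-month libraries against 2.71, 2.31 and 2.84 TPM in the 8-month ones. Pcdhga2 stood at 1.997, 2.63 and 2.84 TPM in the 18-month libraries against 1.46, 2.95 and 3.93 TPM in the 8-month ones. Pcdhga1 stood at 1.27, 2.66 and 2.02 TPM in the 18-month libraries against 2.35, 2.84 and 2.63 TPM in the 8-month ones. The ages overlapped in all 5 of these, and in Pcdhga2 the 8-month libraries held both the lowest and the highest value.

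The order of the beta and of the gamma genes was alike in all libraries. Spearman's rho between pairs of libraries was 0.89 to 0.97 over the 22 beta genes and 0.87 to 0.96 over the 21 gamma genes, over 15 pairs of libraries. These are correlations across genes, which share the locus, the transcript models and the library. The rank of a member in its cluster followed its place along the chromosome only loosely, with a rho between mean level and position of 0.25 over the beta genes, 0.13 over the gamma genes and 0.51 over the alpha genes. With transcript length rho was 0.095 in beta and -0.30 in gamma, and with GC content -0.12 and 0.10. With the share of transcript sequence that occurs in other genes rho was 0.29 in beta and 0.36 in gamma. Gamma transcripts had 51.0 to 55.4% GC and beta transcripts 39.1 to 49.0%, where the median over the tested genes was 49.4%.

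Turning to age, no clustered protocadherin gene passed the test. The test was limma's moderated test on log2(TPM + 1) over the 12748 genes whose mean reached 1 TPM, with Benjamini-Hochberg adjustment and a threshold of 0.05. It covered 39 members, 19 beta and 20 gamma genes. The other 16, all 12 alpha genes, Pcdhb1, Pcdhb2, Pcdhb6 and Pcdhgc5, were under the minimum. By limma 0 of the 39 were called, where 0.0235% of all tested genes were, and the smallest adjusted p among them was 0.33, in Pcdhgb7. An unadjusted p under 0.05 belonged to 2 members lower at 18 months, Pcdhgb7 and Pcdhb7, which is 5.13% of 39 where all tested genes gave 9.99%, and 0 members higher, where all tested genes gave 3.45%. In 5 of the 39, or 12.8%, all 18-month libraries lay below all 8-month libraries, namely Pcdhb3, Pcdhb5, Pcdhb7, Pcdhga6 and Pcdhgb7. Among all tested genes that share was 14.2%. In 1 member, Pcdhga4, they lay above, where the share among all tested genes was 4.48%. None of these shares of the members is above that of all tested genes, and the counts are too small to read a difference from them.

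The summed levels of the members overlapped between the ages in all 3 clusters. The summed beta level was 96.8, 64.9 and 83.1 TPM in the 18-month libraries against 88.6, 99.3 and 97.5 TPM in the 8-month ones, the 8-month mean being 1.17 times the 18-month mean. The summed gamma level was 243, 184 and 229.5 TPM in the 18-month libraries against 224, 268 and 235 TPM in the 8-month ones, with a ratio of 1.11. The summed alpha level was 1.97, 2.1 and 2.01 TPM in the 18-month libraries against 2.28, 1.52 and 3.39 TPM in the 8-month ones, with a ratio of 1.18. The log2 ratio of 18 to 8 months for alpha, -0.24, was 0.09 without 8-month library 3, so its direction rests on that library. In the sums of beta and gamma the second 18-month library was the lowest of all 6 and the first 18-month library lay within the range of the 8-month libraries. The A-type gamma genes summed to 96.04, 83.5 and 94.6 TPM in the 18-month libraries against 92.3, 110.2 and 87.5 TPM in the 8-month ones. The B-type genes summed to 74.2, 43.3 and 60.9 TPM in the 18-month libraries against 60.2, 80.5 and 75.9 TPM in the 8-month ones. The C-type genes of gamma summed to 72.6, 57.5 and 74.1 TPM in the 18-month libraries against 71.4, 77.4 and 71.7 TPM in the 8-month ones. Each of the 3 types overlapped between the ages. The sum of Pcdhac1 and Pcdhac2 did not overlap, at 33.2, 25.4 and 33.4 TPM in the 18-month libraries against 53.7, 50.2 and 62.4 TPM in the 8-month ones.

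**Figure D3:**
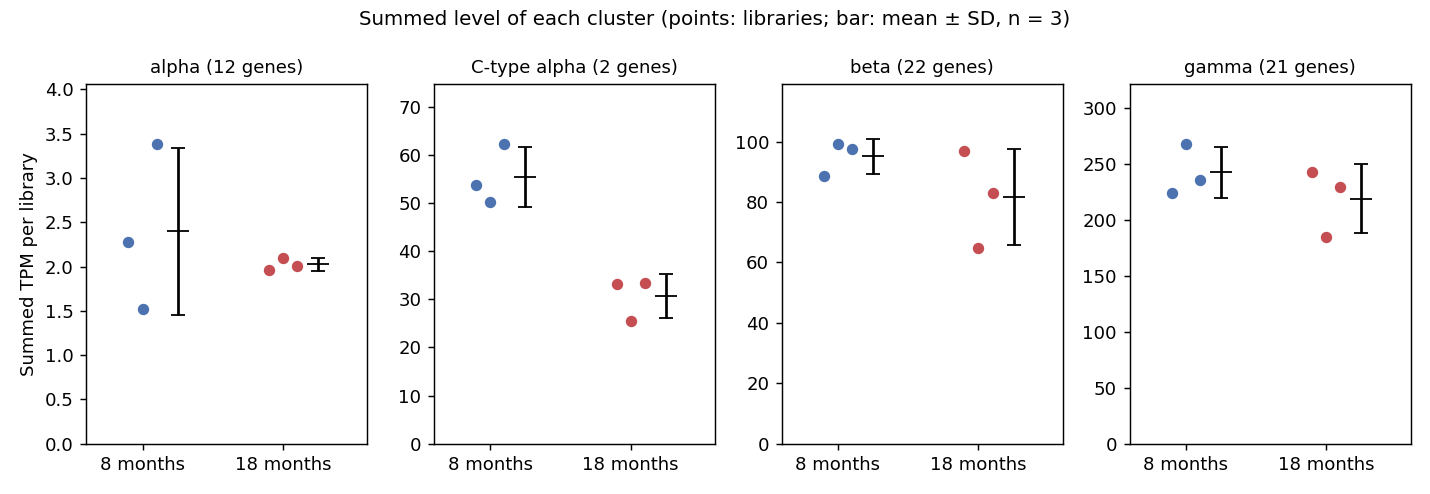
Summed TPM per library of the alpha, C-type alpha, beta and gamma genes at 8 months (blue) and 18 months (red), each axis starting at 0, with points for libraries and a bar for the mean ± SD (n = 3). The C-type alpha sums do not overlap, at 25.4 to 33.4 TPM at 18 months and 50.2 to 62.4 TPM at 8 months, while the ages overlap in the other 3 panels.

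On the log2 scale 31 of the 39 tested members had a difference below 0, or 79.5%, where 66.2% of all tested genes did. With median-of-ratios scaling 28 of the 39 members and 48.4% of all genes were below 0, and with quantile normalization 30 members and 50.7% of all genes. The median difference was -0.20 over the 39 members, -0.21 over the 19 beta genes and -0.17 over the 20 gamma genes, against -0.08 over all 12748 genes. The 8 members with a difference above 0 were Pcdhb11, Pcdhb14, Pcdhb22, Pcdhga3, Pcdhga4, Pcdhga9, Pcdhga10 and Pcdhgb1. The second 18-month library held the lowest value of the 6 in 26 of the 39 members, or 66.7%, where it did so in 38.1% of all tested genes. Without it the median of the members was -0.08, against -0.05 over all genes tested then, and 26 of the 39, or 66.7%, were below 0, where 59.4% of all genes were. With each of the 6 libraries left out in turn, the median of the members ranged from -0.27 to -0.08. Single differences ran from -0.45 in Pcdhgb7 to 0.25 in Pcdhga4, with standard errors between 0.12 and 0.27. Pcdhgb7 had means of 8.25 ± 1.93 TPM for 18 months and 11.4 ± 0.902 TPM for 8 months (SD, n = 3 each), a log2 difference of -0.45 (limma, 95% interval -0.85 to -0.04, adjusted p = 0.331). Pcdhb7 had means of 8.496 ± 1.08 TPM for 18 months and 11.01 ± 0.675 TPM for 8 months (SD, n = 3 each), a log2 difference of -0.34 (limma, 95% interval -0.67 to -0.02, adjusted p = 0.344). The 95% intervals of all members but Pcdhgb7 and Pcdhb7 included 0, and over the 39 they reached from -0.95 to 0.76. Their width differed by gene, with -0.39 to 0.17 in Pcdhgc3 and -0.95 to 0.10 in Pcdhgb5. With 3 libraries per age, changes of moderate size in single genes could thus have been missed, more so where intervals were wide.

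**Figure D4:**
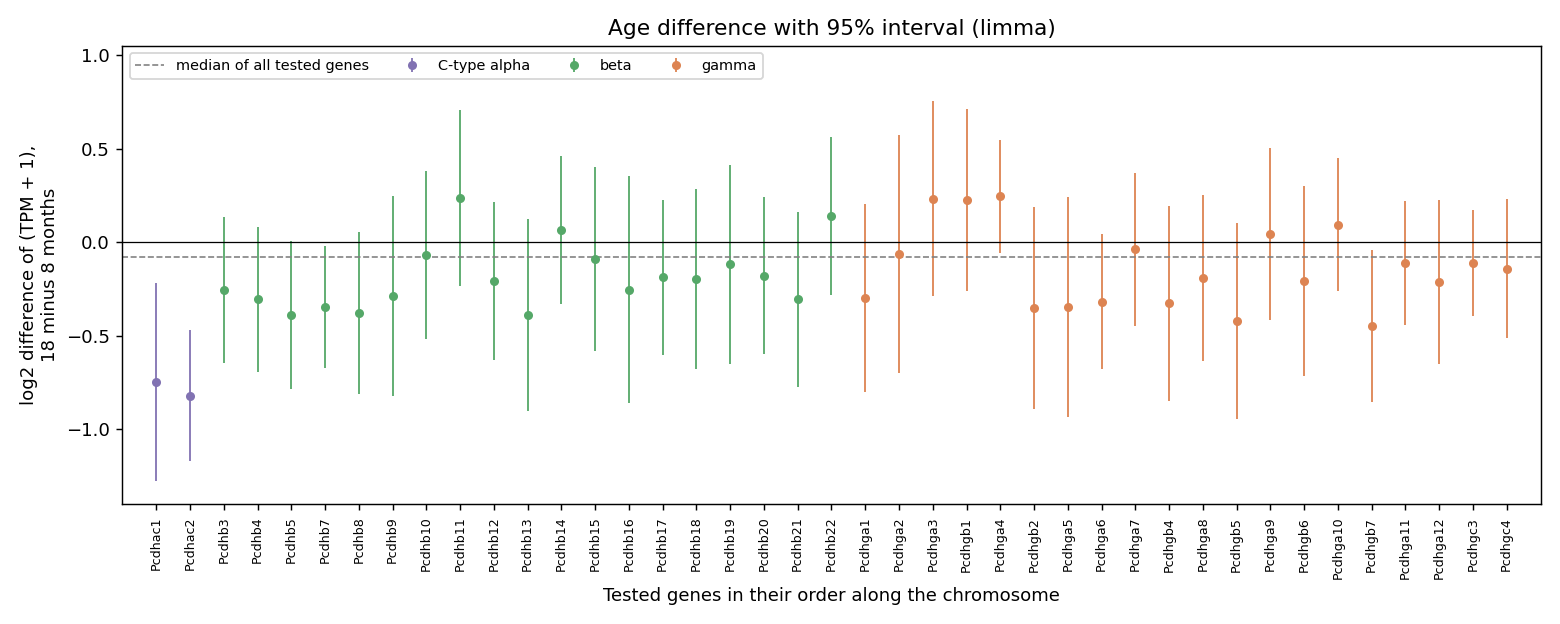
Difference of log2(TPM + 1) between 18 and 8 months with its 95% interval from limma, for the 39 tested members and for Pcdhac1 and Pcdhac2, in chromosome order. The dashed line is the median of all tested genes, and the C-type alpha genes at the left, at -0.75 and -0.82, stand below all members, whose values lie between -0.45 and 0.25.

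Of the 16 members under the minimum, 15 could be fitted without it, and their log2 differences lay between -0.20 and 0.06. The largest below 0 were Pcdhb2 at -0.20, Pcdhb6 at -0.18 and Pcdhgc5 at -0.11. The largest above 0 were Pcdhb1 at 0.06, ENSMUSG00000007440 at 0.04 and Pcdha7 at 0.02, the first and last of which were above 0 TPM in a single library each. At such levels the added 1 TPM dominates, so these values understate any change.

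RNA was measured for a chosen list of genes linked to DNA methylation, silencing or looping. Their action at these promoters was not examined. Of the 24 regulators in the list, all were tested, 0 passed by limma, 8 were higher and 16 lower, and the median log2 difference was -0.07, close to that of all genes. An unadjusted p under 0.05 was found for 2, 1 lower and 1 higher. Of all tested genes 9.99% were lower and 3.45% were higher at that threshold. Wiz, a zinc finger partner of the G9a histone methyltransferases, stood at 2.796, 1.17 and 2.02 TPM in the 18-month libraries against 3.51, 3.85 and 7.07 TPM in the 8-month ones, with a log2 difference of -0.94 (limma, 95% interval -1.62 to -0.26, adjusted p = 0.2298). Uhrf1, which brings DNMT1 to replicated DNA, stood at 4.47, 2.24 and 2.38 TPM in the 18-month libraries against 1.43, 1.53 and 0.997 TPM in the 8-month ones, with a log2 difference of 0.76 (limma, 95% interval 0.18 to 1.34, adjusted p = 0.248). In both the ages did not overlap. Without overlap, 2 of the 24 regulators were higher and 1 was lower, where 4.48% and 14.2% of all tested genes were. Smc1a, a cohesin gene, was the other that was higher. It stood at 102.4, 98.5 and 98.3 TPM in the 18-month libraries against 93.6, 93.7 and 83.5 TPM in the 8-month ones. Ctcf, which marks the active promoters of the clusters, stood at 24.03, 20.4 and 16.7 TPM in the 18-month libraries against 18.5, 20.1 and 25.1 TPM in the 8-month ones. The cohesin gene Rad21 stood at 43.2, 43.5 and 43.1 TPM in the 18-month libraries against 43.4, 41.8 and 43.2 TPM in the 8-month ones. Smchd1, the repressor of the clusters, stood at 13.3, 5.91 and 7.14 TPM in the 18-month libraries against 9.65, 12.1 and 9.78 TPM in the 8-month ones. Dnmt3b stood at 7.21, 7.39 and 6.72 TPM in the 18-month libraries against 7.25, 6.69 and 5.93 TPM in the 8-month ones. For Ctcf, Rad21, Smchd1 and Dnmt3b the ages overlapped. Dnmt3a, the methyltransferase of the series' title, stood at 12.8, 9.21 and 11.5 TPM in the 18-month libraries against 12.2, 15.3 and 13.1 TPM in the 8-month ones, with overlap and a log2 difference of -0.26 (limma, 95% interval -0.63 to 0.10, adjusted p = 0.528). Setdb1, a histone methyltransferase that silences the clusters, had a log2 difference of -0.27 (limma, 95% interval -0.63 to 0.10, adjusted p = 0.513). The directions of Ctcf and Rad21 are uncertain, since that of Ctcf turned with median-of-ratios scaling and quantile normalization and that of Rad21 when GC content and length were corrected for.

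Among the proteins that work with protocadherins at the membrane, 18 of 19 genes were tested, 0 passed by limma and 15 were lower, with a median of -0.14, where 66.2% of all tested genes were lower with a median of -0.08. An unadjusted p under 0.05 was found for 2, both lower, where 9.99% of all tested genes were lower at that threshold. Wasf2, a subunit of the WAVE complex that builds actin branches and binds alpha protocadherins, stood at 53.1, 35.02 and 47.6 TPM in the 18-month libraries against 61.6, 66.1 and 69.6 TPM in the 8-month ones, with a log2 difference of -0.55 (limma, 95% interval -0.91 to -0.19, adjusted p = 0.204). The ages did not overlap in Wasf2. Ncstn was also lower without overlap, at 222.0, 221.4 and 239.6 TPM in the 18-month libraries against 248.2, 247.3 and 246.5 TPM in the 8-month ones. That made 2 of the 18 lower without overlap, where 14.2% of all tested genes were, and 0 higher. Marcks, an actin-binding substrate of protein kinase C in a pathway that gamma protocadherins feed into, stood at 99.4, 87.6 and 118 TPM in the 18-month libraries against 165, 112 and 154 TPM in the 8-month ones, with overlap and a log2 difference of -0.49 (limma, 95% interval -0.88 to -0.09, adjusted p = 0.275). Nckap1, another WAVE subunit, had a log2 difference of -0.23 (limma, 95% interval -0.55 to 0.08, adjusted p = 0.512), and Aph1a, a subunit of the gamma-secretase that cuts protocadherins, had a log2 difference of -0.25 (limma, 95% interval -0.57 to 0.08, adjusted p = 0.507).

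The non-clustered protocadherins, each with an independent gene, were led by 3 genes in these cells. Pcdh1 stood at 120.4, 130.5 and 135 TPM in the 18-month libraries against 162, 152 and 168 TPM in the 8-month ones, above the highest clustered gene Pcdhgc3 in every library. The ages did not overlap in Pcdh1, with a log2 difference of -0.32 (limma, 95% interval -0.53 to -0.11, adjusted p = 0.204). Its log2 difference was -0.04 (limma adjusted p up to 0.927, with or without the replicate block) when GC content and length were corrected for, a setting chosen after seeing the data, and lay between -0.36 and -0.22 in the other settings. Pcdh12, known as an endothelial protocadherin, stood at 79.03, 56.4 and 61.1 TPM in the 18-month libraries against 98.9, 86.9 and 60.6 TPM in the 8-month ones. Pcdh17 stood at 50.97, 42.6 and 49.7 TPM in the 18-month libraries against 40.97, 63.6 and 52.4 TPM in the 8-month ones, with overlap in both. Pcdh18 stood at 1.54, 1.28 and 1.34 TPM in the 18-month libraries against 4.57, 2.21 and 3.88 TPM in the 8-month ones, with a log2 difference of -0.90 (limma, 95% interval -1.44 to -0.35, adjusted p = 0.194). Pcdh7 stood at 0.962, 0.777 and 0.676 TPM in the 18-month libraries against 0.988, 2.47 and 1.84 TPM in the 8-month ones, with a log2 difference of -0.58 (limma, 95% interval -1.15 to -0.01, adjusted p = 0.359). Of the 12 genes 6 were tested, all 6 were lower with a median of -0.31, 3 had an unadjusted p under 0.05, and 0 passed by limma. Pcdh7 and Pcdh18, like Pcdh1, were lower without overlap, which made 3 of the 6. Of all tested genes 66.2% were lower, 14.2% were lower without overlap, and 9.99% were lower with an unadjusted p under 0.05.

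The genes beside the clusters on chromosome 18 showed no common direction. Of 14 listed neighbours 12 were tested, 6 were higher and 6 lower, with a median of -0.00, which was 0.09 with median-of-ratios scaling, and 0 passed by limma. Diaph1, an actin nucleator directly downstream of the gamma cluster, stood at 22.3, 23.7 and 19 TPM in the 18-month libraries against 15.1, 16.9 and 16.1 TPM in the 8-month ones, with a log2 difference of 0.41 (limma, 95% interval 0.12 to 0.69, adjusted p = 0.221), the 1 neighbour at an unadjusted p under 0.05. The ages did not overlap in Diaph1. Without overlap, 4.48% of all tested genes were higher and 14.2% lower, and 3.45% were higher with an unadjusted p under 0.05. Ik, a splicing factor upstream of the alpha cluster, stood at 86.1, 85.2 and 89.7 TPM in the 18-month libraries against 78.3, 83.4 and 77.6 TPM in the 8-month ones. Tmco6 stood at 6.99, 7.93 and 7.72 TPM in the 18-month libraries against 8.62, 8.64 and 8.63 TPM in the 8-month ones. In both the ages did not overlap, with Ik higher and Tmco6 lower at 18 months. Fchsd1 stood at 2.495, 0.926 and 1.94 TPM in the 18-month libraries against 2.11, 3.14 and 2.5 TPM in the 8-month ones.

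The labelled cell type was checked against marker genes. Pecam1 and Cdh5, which define endothelium, had mean levels of 1354 and 734.7 TPM in the older group and of 1351 and 891.7 TPM in the younger one. The 6 epithelial markers summed to 9268 to 18876 TPM at 18 months and 10738 to 19567 TPM at 8 months, most of it from the surfactant gene Sftpc and the airway gene Scgb1a1. Transcripts of epithelial genes were thus abundant in all 6 libraries, and the ages overlapped. Of the 8 neuronal markers, Stmn2 lay at 335.2 and 346.4 TPM at 18 and 8 months and Rbfox3 at 1.59 and 3.62 TPM, while Snap25 lay at 0.170 and 0.114, Tubb3 at 0.109 and 0.0598 and Syt1 at 0.0049 and 0.0058 TPM. The 6 Schwann cell markers summed to 14.2 to 19.1 TPM at 18 months and 18.0 to 25.3 TPM at 8 months. Most of it came from Ncam1, with means of 12.7 and 15.4 TPM, while Sox10 had means of 0.0156 and 0.0546 TPM. The 6 immune markers summed to 644.7 to 1327 TPM at 18 months and 586.5 to 1594 TPM at 8 months, and the 4 mesothelial markers to 0.0498 to 0.546 and 0.166 to 0.287 TPM. Nearly all of the immune sum came from Lyz2, while Cd68 had means of 28.9 and 17.6 TPM and Ptprc of 4.64 and 4.46 TPM. No marker of any list was at 0 in all 6 libraries. The part of these cells in the levels of the protocadherins was not tested.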

How the data were processed

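The authors deposited TPM for 24520 Ensembl genes, 1 column for each of the 6 libraries (3 per age). Per the submitters' processing notes kallisto and the build mm10 were used. Its version, transcript set and gene summing: not given in the sources used here. Per the labels' protocols, 10 ng of total RNA entered a SMARTer Ultra Low library and 100 bp paired reads were taken. Columns summed to 869315 to 876126 TPM. TPM keep no depth, so the depth is unknown and counting errors are not given.

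Symbols, biotypes and positions came from GENCODE M21 (GRCm38), which held 24298 of the identifiers. The test (R 4.3.3, limma 3.58.1) used log2(TPM + 1), age as sole term, an intensity trend, 2-sided p and all 12748 genes whose mean reached 1 TPM, and was tested on simulated data. Log2 differences understate the change of low genes. Shared sequence was counted over 31-base words of GENCODE transcripts. The members and lists were chosen with earlier results of these data known, so sums and lists are given without a test. Members with a mean of at least 1 TPM were named with all values. Of lower members, the 3 highest per cluster and the 3 largest differences in each direction were to be named. Of each context list, up to 4 genes by unadjusted p were named, with Ctcf, Rad21, Smchd1, Dnmt3a, Dnmt3b, Pcdh1, Pcdh12 and Pcdh17. The other alpha genes, the single marker genes, Smc1a and Ncstn were named after their values were seen. Promoter sequences were not analysed here.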

Additional observations from a re-analysis of the deposited data

How the results depend on the processing

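No clustered protocadherin gene passed under any alternative; the lowest adjusted p of a member was 0.118, for Pcdhgb7 with library weights. Alternatives were quantile normalization, median-of-ratios scaling, pseudocounts of 0.1 and 0.5, a minimum mean of 5 TPM, no filter, library weights, no trend in limma, the replicate block, each library left out and, chosen after seeing the data, a correction for GC content and length. Deviations of same-numbered libraries had correlations of -0.012, -0.090 and 0.057, and those of differently numbered libraries ranged from -0.0685 to 0.083. Whether same-numbered libraries share a batch cannot be told from these values. With the replicate block, alone or with the GC correction, 0 genes were called higher and 0 lower over all genes. Over all genes 1 was called higher and 2 lower; this became 0 and 0 without a filter, 8 and 8 with median-of-ratios scaling, 9 and 7 with quantile normalization, 2 and 1 without the trend, 34 and 60 with library weights, and 1 lower with a pseudocount of 0.1. With a library left out it was 0 to 1 in each direction.

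Small log2 differences turned sign, and the cause was not tested. With median-of-ratios scaling these were Pcdhb10 (0.0004), Pcdhga2 (0.0097), Pcdhga7 (0.0454) and Ctcf (0.0336), with quantile normalization Pcdhga7 (0.0663) and Ctcf (0.0372), and with library weights Pcdhb15 (0.0099) and Pcdhga2 (0.0016). With the GC correction, with or without the replicate block, they were Pcdhga2 (0.0213), Pcdhga7 (0.0361), Pcdhgc3 (0.0166) and Rad21 (-0.0092). With each library left out, ranges that crossed 0 were -0.2154 to 0.0557 for Pcdhb10, -0.0524 to 0.2205 for Pcdhb14, -0.1957 to 0.0939 for Pcdhb15, -0.333 to 0.0556 for Pcdhb19, -0.3463 to 0.1562 for Pcdhga2, -0.1659 to 0.0999 for Pcdhga7, -0.0755 to 0.2022 for Pcdhga9, -0.381 to 0.0326 for Pcdhgb6, -0.1861 to 0.0092 for Pcdhgc3, -0.18 to 0.069 for Ctcf, -0.2727 to 0.0384 for Pcdh17 and -0.0017 to 0.0246 for Rad21.

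List medians moved to -0.0481 (partners), -0.2161 (non-clustered protocadherins) and 0.0924 (neighbours) with median-of-ratios scaling, and that of the non-clustered genes to -0.1888 with the GC correction, with or without the replicate block. With a library left out the non-clustered genes ranged from -0.3973 to -0.269 and the neighbours from -0.0869 to 0.0348. The log2 ratio of the C-type alpha sum was -1.1041 without Pcdhac2. Alpha genes above 0.5 TPM or at 1 TPM in all 6 libraries numbered 0; in any library 6 exceeded 0.1 TPM, 3 exceeded 0.5 TPM and 0 reached 1 TPM. Sums over members with mostly unique sequence could not be formed for alpha, which has none. Depth is unknown, so the precision of low values cannot be given.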
